A study of Mus musculus with 12 samples.

Results

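Immediate early genes and the feedback genes of the mitogen-activated protein kinase (MAPK) pathway were followed in primary mouse brain endothelial cells (BECs). The group holds 41 genes chosen by symbol, of 27321 genes with a value in both environments, and all 41 were measured in every library. BECs came from 8-week-old mice (C57BL/6 in the labels, a C57BL/6J background in the methods) of the genotypes Cort+/+ (wild type) or Cort-/- (without the neuropeptide cortistatin), with 3 mice pooled per replicate, and were enriched by 60 h of puromycin. They were kept for 24 h in normal medium at 21% O2 with 5.5 mM glucose (normoxia and normoglycemia, NX/NG), or for 4 h at 1% O2 in medium lacking both glucose and serum and then for 20 h at 21% O2 with glucose and 10% fetal bovine serum (OGD-R). The return of serum was therefore part of OGD-R, and its part cannot be told apart from that of oxygen and glucose. The labels also carry an ischemic stroke model (MCAO) as disease state, whereas the methods of the study describe injury in culture. RNA-seq libraries of 3 Cort+/+ and 2 Cort-/- replicates were analysed per environment. Of the Cort-/- samples, replicate 3 of NX/NG and replicate 2 of OGD-R were not used here. The tests left out replicate 1 of Cort+/+ OGD-R, as the heatmaps of the study do, and its values are given beside them.

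Immediate early genes are transcribed within minutes of a stimulus without new protein synthesis, mainly through serum response factor (SRF) with its ERK-activated partners, and through CREB at cyclic AMP response elements. Their products include the transcription factors of the AP-1, EGR and NR4A families, which in endothelium respond to shear stress, growth factors, hypoxia and cytokines. Others end the signal: dual-specificity phosphatases (DUSPs) remove phosphate from MAPKs, and the RNA-binding proteins Zfp36 and Zfp36l1 speed the decay of short-lived mRNAs. The OGD-R libraries were taken after 20 h of reoxygenation.

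Every library held between 12386048 and 12390428 reads on genes. Ribosomal RNA (Rn18s-rs5) took 7.64% to 15.8% of them in 8 libraries. The exceptions, both from OGD-R, were replicate 3 of Cort-/- (0.0951%) and replicate 1 of Cort+/+ (0.0775%). Cort itself gave 2, 1 and 1 reads in the Cort+/+ NX/NG libraries, 0, 0 and 1 in those after OGD-R, and 0 in all 4 Cort-/- libraries, so that the genotype could not be checked at this depth. All 8 endothelial markers listed were above 1 RPKM (reads per kilobase of transcript, scaled to library size) on average, and their summed level was higher in Cort-/- under NX/NG (1306.5 and 1446 RPKM) than in Cort+/+ (1023 to 1301 RPKM), and lay between 1036 and 1448 RPKM after OGD-R. The 6 fibroblast markers summed to between 198 and 285 RPKM in Cort+/+ and between 86.0 and 124 RPKM in Cort-/- under NX/NG, and to between 225 and 333 RPKM and between 194 and 245 RPKM after OGD-R. These sums were almost all from the collagen genes Col1a1, Col1a2 and Col3a1. Under NX/NG, Pdgfra was higher in Cort-/- (0.498 and 0.727 RPKM) than in Cort+/+ (0.326 to 0.375 RPKM), and the genotypes overlapped in Dcn and Lum. The 6 pericyte markers summed to between 18.3 and 21.9 RPKM in Cort+/+ and between 7.81 and 10.5 RPKM in Cort-/- under NX/NG, and to between 14.9 and 22.3 RPKM after OGD-R. Almost all of the pericyte sum came from Pdgfrb, Cspg4 and Rgs5, and the other 3 markers averaged under 1 RPKM. The 4 smooth muscle markers summed to between 1338 and 1818 RPKM under NX/NG and between 969 and 1651 RPKM after OGD-R, and the astrocyte, neuron, oligodendrocyte and microglia or macrophage lists to at most 3.97 RPKM each. The 5 epithelial markers summed to 51.4 RPKM in replicate 2 of Cort+/+ NX/NG and to 36.2 RPKM in replicate 1 of Cort-/- OGD-R, and to between 1.60 and 14.5 RPKM in the other libraries. No marker found in the tables was at 0 in all libraries. In bulk RNA, fewer cells of a type and less RNA per cell cannot be told apart.

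The genes spanned a wide range of levels, with a median of 12.1 RPKM over the 41 genes (mean of 10 libraries) against 1.05 RPKM over all genes in both environments. Rhob, a small GTPase of endosomes and endothelial stress fibres, was highest at 145 RPKM, before Ier3, an early response gene with a role in survival, at 78.6 RPKM and Klf6, a Kruppel-like factor induced by vessel injury, at 63.7 RPKM. The ranges over the 10 libraries of these genes did not meet for Rhob (118 to 172 RPKM), while Ier3 (64.4 to 100.1 RPKM) and Klf6 (54.7 to 73.6 RPKM) overlapped.

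Among the AP-1 and related factors, which bind DNA as dimers through a basic leucine zipper, the level ran from 35.9 RPKM for Maff over Jund (33.7), Jun (23.4), Fosl2 (23.1), Junb (19.3), Fosl1 (7.89), Atf3 (5.94) and Fos (2.83) to 0.208 RPKM for Fosb. The FOS-type subunit with the highest level was thus Fosl2, and Fosb rested on 13 to 19 reads per library. The zinc finger factors of the EGR family and the orphan nuclear receptors of the NR4A family measured 7.49 RPKM for Egr1, 0.836 for Egr3, 0.488 for Egr2, 3.29 for Nr4a1, 1.00 for Nr4a2 and 0.138 for Nr4a3. Egr2 rested on 4 to 41 reads and Nr4a3 on 4 to 19 reads per library, so their values carry a large counting error. Srf (16.3 RPKM) and the growth regulator Myc (13.4 RPKM) were above every gene of both families.

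Klf4 (12.4 RPKM), Klf10 (8.27 RPKM) and Klf2 (5.60 RPKM) were below Klf6, and Klf2 and Klf4 are the flow-induced Kruppel-like factors of quiescent endothelium. The antiproliferative genes Btg2 (28.3 RPKM) and Btg1 (14.1 RPKM) lay with Ier5 (16.6), Ier2 (9.72), Ier5l (9.12) and Csrnp1 (2.91) below Ier3. Of the phosphatases, the nuclear Dusp1 was highest (39.8 RPKM), followed by the ERK-directed Dusp6 (19.2), Dusp5 (12.1), Dusp4 (7.54) and Dusp2 (1.23). Zfp36l1 stood at 16.9 RPKM, Zfp36 at 4.29 RPKM and the pseudokinase Trib1 at 3.09 RPKM. The polo-like kinases Plk2 (41.8 RPKM) and Plk3 (12.9 RPKM) and the kinase Sgk1 (22.7 RPKM) exceeded the small GTPase Gem (1.27 RPKM).

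**Figure D1:**
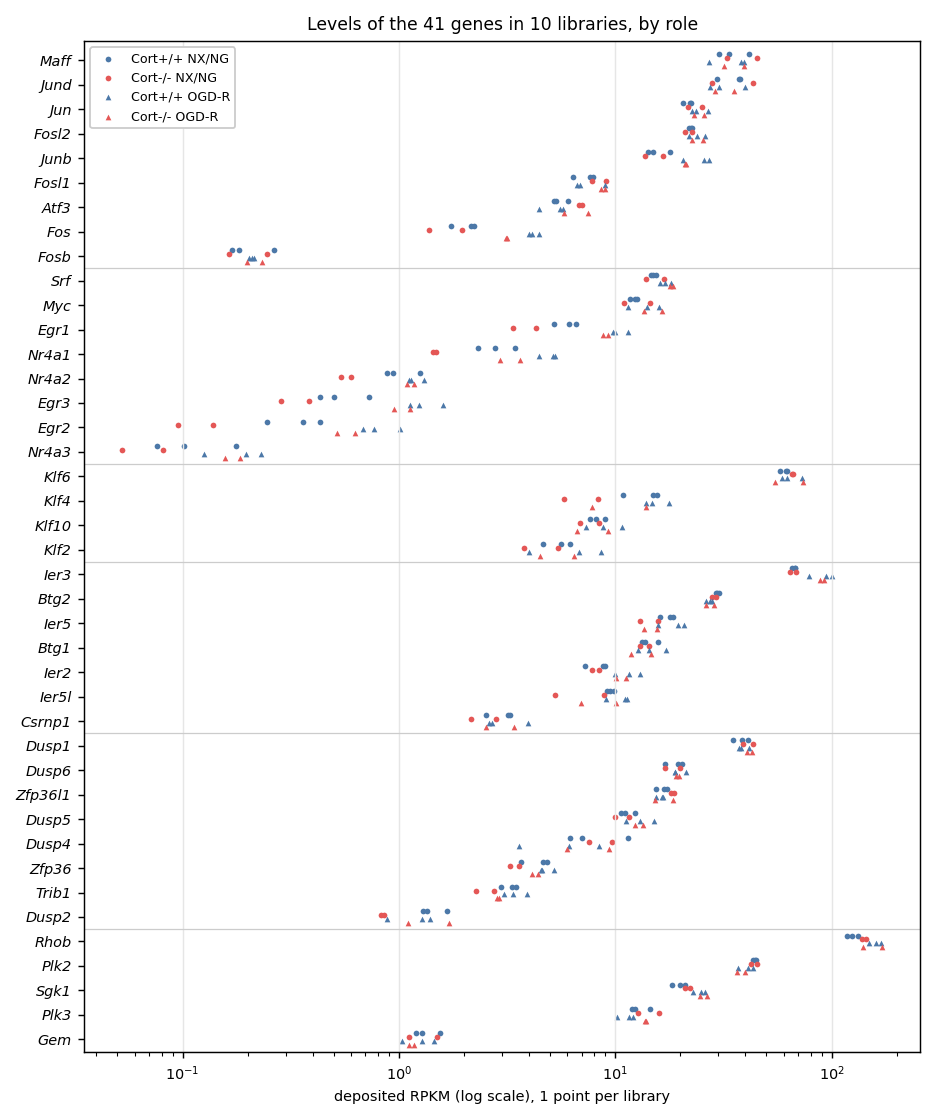
Deposited RPKM of the 41 genes on a log axis, 1 point per library, blue for Cort+/+ and red for Cort-/-, circles for NX/NG and triangles for OGD-R, with grey lines between the functional groups. Rhob lay at 118 to 172 RPKM at the top of the range, and Egr2, Egr3, Fosb and Nr4a3 averaged under 1 RPKM.

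The first question was how the genes differed between OGD-R and NX/NG within each genotype. Fos, Junb, Egr1, Egr2, Egr3, Nr4a1, Ier2 and Ier3 were higher after OGD-R in Cort+/+ and again in Cort-/- BECs, each time at an unadjusted p under 0.05 in limma, by 1.22-fold (Ier3) to 2.15-fold (Egr3) in Cort+/+ and by 1.24-fold (Ier2) to 2.99-fold (Egr2) in Cort-/-. These 2 comparisons share no library, and the 8 genes are 19.5% of the 41, against 0.218% of the 26087 genes tested in both. The 41 were chosen with earlier results of these data known, so their share is no independent support. Of the 41, 37 averaged at least 1 RPKM, against 50.5% of all genes, so the 2 shares are not like for like. Plk2 was lower in both, as were 0.222% of all genes. None of the 41 passed a false discovery rate (FDR) of 0.05 in either genotype, nor did any gene (0% of all). In Cort+/+ the unadjusted p was under 0.05 for 10 genes that were higher and 3 that were lower, against 3.71% and 3.06% of the 26885 genes tested. In Cort-/- these were 9 and 1, against 2.21% and 1.87% of 26523 genes. The median log2 difference over the 41 genes was -0.00 in Cort+/+ and 0.11 in Cort-/-, beside -0.01 and -0.00 over all genes. The count of 8 was 3 (Egr1, Egr2 and Nr4a1) without Cort-/- NX/NG replicate 2, and 5 without either Cort-/- OGD-R library or either Cort+/+ OGD-R library of the fit. The summed fibroblast and pericyte markers were also higher after OGD-R in Cort-/-. The fibroblast sum was again almost all from the collagen genes, and Pdgfra and Dcn overlapped. Of the pericyte markers, Cspg4 and Pdgfrb were higher in these libraries, Vtn was lower and Rgs5 overlapped. Of 4 smooth muscle markers, 2 were lower after OGD-R in Cort+/+ and 1 in Cort-/- at an unadjusted p under 0.05, beside 3.06% and 1.87% of all genes. The part of these lists in the differences was not tested. Levels set across environments are given below as RPKM from recovered reads scaled over all 10 libraries, because the deposited tables were scaled apart.

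Egr1, a zinc finger factor that activates inflammatory and procoagulant genes in injured vessels, measured 6.76, 6.29 and 5.36 RPKM in Cort+/+ under NX/NG and 9.75 and 11.1 RPKM after OGD-R, with 9.56 RPKM in the omitted replicate 1. In Cort-/- it measured 3.45 and 4.43 RPKM under NX/NG and 8.56 and 9.00 RPKM after OGD-R. Every OGD-R library was above every NX/NG library. The log2 difference was 0.76 ± 0.13 (SE) in Cort+/+ (limma, unadjusted p = 0.00142, FDR = 0.327) and 1.15 ± 0.15 in Cort-/- (unadjusted p = 0.00163, FDR = 0.541). Egr1 kept an unadjusted p under 0.05 in every alternative fit of both genotypes, leaving out each library included.

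Its relatives Egr2 and Egr3, which share the DNA-binding domain, were at lower levels. Egr3 measured 0.512, 0.442 and 0.747 RPKM in Cort+/+ under NX/NG and 1.10 and 1.55 RPKM after OGD-R, against 0.397 and 0.294 and then 1.09 and 0.924 RPKM in Cort-/-. Egr2 gave 15, 11 and 17 reads in Cort+/+ under NX/NG and 29 and 41 after OGD-R, and 4 and 6 and then 25 and 24 reads in Cort-/-. Again no OGD-R library fell within the range of its NX/NG group. The log2 difference of Egr3 was 1.10 ± 0.32 in Cort+/+ and 1.32 ± 0.32 in Cort-/-, and that of Egr2 was 1.10 ± 0.33 and 1.58 ± 0.35. Both are singled out after their values were seen, since their mean was under 1 RPKM.

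Nr4a1, an orphan nuclear receptor that needs no known ligand and acts by its amount, measured 3.52, 2.37 and 2.86 RPKM in Cort+/+ under NX/NG and 5.05 and 4.32 RPKM after OGD-R (5.14 RPKM in replicate 1). In Cort-/- it measured 1.47 and 1.52 RPKM under NX/NG and 2.86 and 3.52 RPKM after OGD-R, within the range of Cort+/+ under NX/NG. The log2 difference was 0.68 ± 0.19 in Cort+/+ (limma, unadjusted p = 0.0143, FDR = 0.596) and 1.04 ± 0.18 in Cort-/- (unadjusted p = 0.0043, FDR = 0.655). Nr4a2 measured 1.28, 0.902 and 0.964 RPKM and then 1.28 and 1.10 RPKM in Cort+/+, groups that overlapped, and 0.615 and 0.559 and then 1.06 and 1.14 RPKM in Cort-/-, a log2 difference of 0.81 ± 0.26. For Nr4a3 the log2 difference was 0.23 ± 0.34 and 0.66 ± 0.30, with no unadjusted p under 0.05, and Srf and Myc differed by at most 0.17 in either genotype.

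Fos, the subunit that pairs with JUN proteins to form AP-1, measured 2.20, 2.28 and 1.78 RPKM in Cort+/+ under NX/NG and 4.03 and 3.88 RPKM after OGD-R (4.34 RPKM in replicate 1). In Cort-/- it measured 2.02 and 1.41 RPKM and then 3.07 and 3.04 RPKM. All OGD-R libraries exceeded all NX/NG libraries, and those of Cort+/+ were the highest. The log2 difference was 0.90 ± 0.15 in Cort+/+ (limma, unadjusted p = 0.00152, FDR = 0.330) and 0.82 ± 0.22 in Cort-/- (unadjusted p = 0.0210, FDR = 0.922). Leaving out 1 library in Cort-/- gave log2 differences from 0.57 (without NX/NG replicate 2, the lowest in Fos) to 1.06, and the limma p was above 0.05 without NX/NG replicate 2 or either OGD-R library.

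Junb, a JUN protein of AP-1, measured 15.3, 18.2 and 14.5 RPKM and then 26.3 and 20.1 RPKM in Cort+/+, and 17.1 and 14.1 and then 20.5 and 20.7 RPKM in Cort-/-. Its groups did not overlap in either genotype. The log2 difference was 0.53 ± 0.15 and 0.41 ± 0.12. The other 7 factors of this class had no unadjusted p under 0.05 in either genotype, and Jun itself differed by 0.03 in Cort+/+ and -0.02 in Cort-/-. Fosb, the close relative of Fos, differed by -0.02 and 0.01 on 13 to 19 reads per library. Fosl1 measured 6.53, 8.08 and 7.88 and then 6.69 and 6.46 RPKM in Cort+/+ (-0.18 ± 0.11), and Maff, a small MAF protein, measured 46.4 and 33.7 and then 31.1 and 38.2 RPKM in Cort-/- (-0.20 ± 0.20). The groups of both genes overlapped.

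Ier2, a nuclear early response protein, measured 7.46, 9.20 and 8.99 RPKM and then 12.7 and 11.2 RPKM in Cort+/+, and 8.63 and 8.08 and then 9.87 and 10.96 RPKM in Cort-/-. Its log2 difference was 0.48 ± 0.12 in Cort+/+ and 0.31 ± 0.10 in Cort-/-. Ier3 measured 69.2, 69.1 and 67.2 RPKM and then 91.8 and 76.4 RPKM in Cort+/+, and 66.3 and 70.2 and then 85.9 and 89.6 RPKM in Cort-/-, with log2 differences of 0.29 ± 0.09 and 0.36 ± 0.10. For both genes the OGD-R libraries were above all those under NX/NG. Of the other genes of this class, Btg2 was lower in Cort+/+, at 30.9, 29.7 and 30.3 RPKM and then 26.7 and 25.7 RPKM, a log2 difference of -0.21 ± 0.05. In Cort-/- it measured 30.2 and 29.0 and then 27.9 and 25.5 RPKM (-0.15 ± 0.09, limma, unadjusted p = 0.166).

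**Figure D2:**
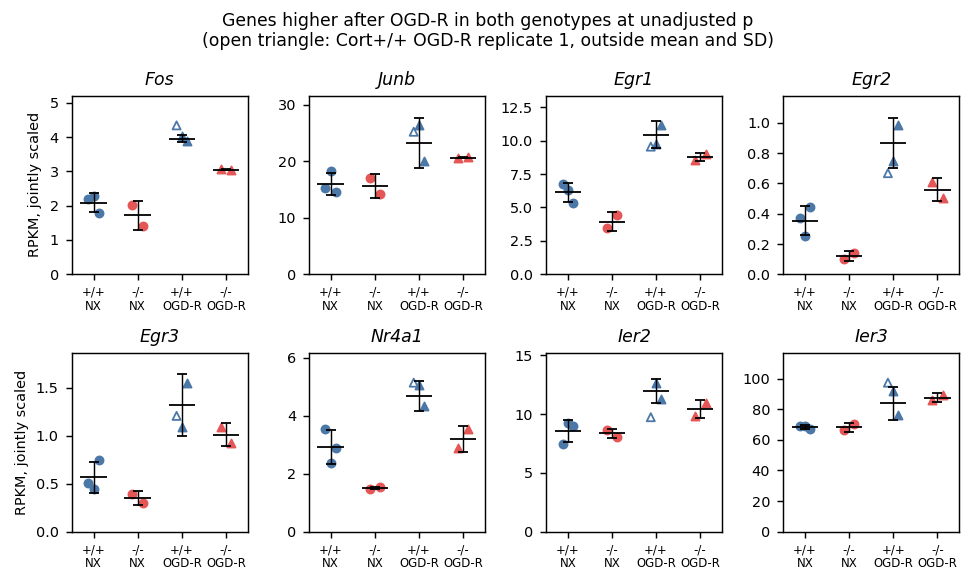
Jointly scaled RPKM of the 8 genes that were higher after OGD-R in both genotypes at unadjusted p, 1 point per library (blue Cort+/+, red Cort-/-, circles NX/NG, triangles OGD-R), with mean and SD as black bars and Cort+/+ OGD-R replicate 1 open and outside mean and SD. In each genotype the filled OGD-R triangles sit above the NX/NG circles, for example at 9.75 and 11.1 RPKM against 5.36 to 6.76 RPKM for Egr1 in Cort+/+.

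The promoters of 32 of the 41 genes were found in RefSeq (GRCm38.p6), as windows of 250 bases before to 50 after a transcription start, and were searched on both strands for the 5-base core of the cyclic AMP response element, TGACG (reverse complement CGTCA), which is also part of the full element TGACGTCA. The core was present in 27 of the 46 windows of these genes (58.7%) and in 20.8% of all 32851 windows. At least 4 cores were found in 0.231% of all windows, and among the 41 genes in Nr4a1, Nr4a2 and Nr4a3. The full element was found in Btg2, Dusp1, Plk2 and Maff and in 1.79% of all windows, and the CArG box that SRF binds in Egr2, Srf, Dusp5 and Zfp36 and in 1.63% of all windows. The AP-1 site TGACTCA was found in Csrnp1 and in 5.20% of all windows. Fosl1, Egr1, Egr3, Myc, Klf10, Ier2, Dusp4, Trib1 and Gem were not matched. Bases outside the windows were not searched, so a gene without a match may hold a site further away. Shown here are the 250 bases before the start for Fos, Nr4a1 and Junb, which were higher after OGD-R in both genotypes, and for Nr4a2, which was so in Cort-/-, with the cores in capitals. They lie at chr12:85473640-85473889 on the + strand (Fos), chr15:101266596-101266845 on the + strand (Nr4a1), chr2:57124004-57124253 on the - strand (Nr4a2) and chr8:84978749-84978998 on the - strand (Junb).
Fos: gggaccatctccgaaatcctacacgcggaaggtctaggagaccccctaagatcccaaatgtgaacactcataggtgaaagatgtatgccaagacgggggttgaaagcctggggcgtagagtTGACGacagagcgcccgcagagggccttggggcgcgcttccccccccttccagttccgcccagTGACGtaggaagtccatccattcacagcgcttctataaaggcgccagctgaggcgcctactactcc
Nr4a1: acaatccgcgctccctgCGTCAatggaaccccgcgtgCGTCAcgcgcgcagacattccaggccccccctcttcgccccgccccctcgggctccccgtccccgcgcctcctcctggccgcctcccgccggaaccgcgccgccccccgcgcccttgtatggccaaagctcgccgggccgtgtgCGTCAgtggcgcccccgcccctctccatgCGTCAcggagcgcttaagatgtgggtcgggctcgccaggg
Nr4a2: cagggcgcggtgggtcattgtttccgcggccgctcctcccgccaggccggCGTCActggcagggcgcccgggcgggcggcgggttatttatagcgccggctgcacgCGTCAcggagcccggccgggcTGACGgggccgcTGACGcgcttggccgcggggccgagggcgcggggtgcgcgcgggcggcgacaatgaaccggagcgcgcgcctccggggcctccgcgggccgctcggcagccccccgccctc
Junb: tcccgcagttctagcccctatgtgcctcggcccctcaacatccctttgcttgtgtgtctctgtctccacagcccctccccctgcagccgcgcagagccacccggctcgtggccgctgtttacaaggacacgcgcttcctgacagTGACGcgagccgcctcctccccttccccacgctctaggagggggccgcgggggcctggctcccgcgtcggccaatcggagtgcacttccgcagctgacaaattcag
Counted from the start, the cores began at positions -129 and -66 in Fos, -233, -213, -69 and -40 in Nr4a1, -200, -144, -123 and -111 in Nr4a2, and -106 in Junb. A match of letters is a description and no binding was measured. Ier3, which was also higher after OGD-R in both genotypes, had none in its window. Egr2, higher in both as well, had cores in some of its windows and is not printed. Plk2, lower in both genotypes, had 3 cores in its window. Dusp1 also had 3, with log2 differences of -0.01 in Cort+/+ and -0.06 in Cort-/-.

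Of the 8 feedback genes, none reached an unadjusted p under 0.05 between OGD-R and NX/NG in either genotype, where the shares of all genes given above were also low, with a median log2 difference of -0.04 in Cort+/+ and 0.06 in Cort-/-. The ERK phosphatase Dusp6 differed by 0.01 ± 0.10 in Cort+/+ and 0.01 ± 0.11 in Cort-/-, and Dusp1 by -0.01 ± 0.09 and -0.06 ± 0.10. Dusp4, a nuclear phosphatase of ERK and JNK, had the widest spread, with 7.23, 11.7 and 6.36 RPKM and then 5.96 and 3.51 RPKM in Cort+/+, and 9.91 and 7.78 and then 5.82 and 9.09 RPKM in Cort-/-. Its Cort+/+ groups did not overlap (log2 difference -0.82 ± 0.34, limma, unadjusted p = 0.0565), whereas replicate 1, left out of the fit, was at 8.23 RPKM, within the NX/NG range. Zfp36l1 measured 18.7 and 19.3 and then 18.0 and 14.8 RPKM in Cort-/-, where the groups did not overlap (-0.22 ± 0.12), and 15.8, 17.8 and 17.2 and then 16.1 and 16.2 RPKM in Cort+/+, where they did.

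The kinases and GTPases went both ways. Plk2, a polo-like kinase induced by stress, measured 44.2, 45.9 and 45.2 RPKM and then 40.2 and 36.2 RPKM in Cort+/+, and 46.4 and 43.6 and then 35.8 and 38.9 RPKM in Cort-/-, a log2 difference of -0.24 ± 0.07 and -0.27 ± 0.09. Rhob measured 127, 121 and 137 RPKM and then 166 and 156 RPKM in Cort+/+ (log2 difference 0.33 ± 0.08), but 148 and 143 and then 167 and 137 RPKM in Cort-/- (0.06 ± 0.15), where the groups overlapped. Sgk1, a kinase induced by serum and glucocorticoids, measured 18.7, 21.5 and 20.5 and then 25.3 and 24.3 RPKM in Cort+/+ (0.29 ± 0.08), and 22.8 and 21.6 and then 25.9 and 23.9 RPKM in Cort-/- (0.17 ± 0.09). Its groups did not overlap in either genotype, and the unadjusted p was under 0.05 in Cort+/+. Plk3 was lower in Cort+/+ by 0.31 on the log2 scale, with 12.2, 12.7 and 14.8 RPKM and then 11.3 and 9.96 RPKM, and the values of Cort-/- overlapped. No Kruppel-like factor had an unadjusted p under 0.05 in either genotype.

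**Figure D3:**
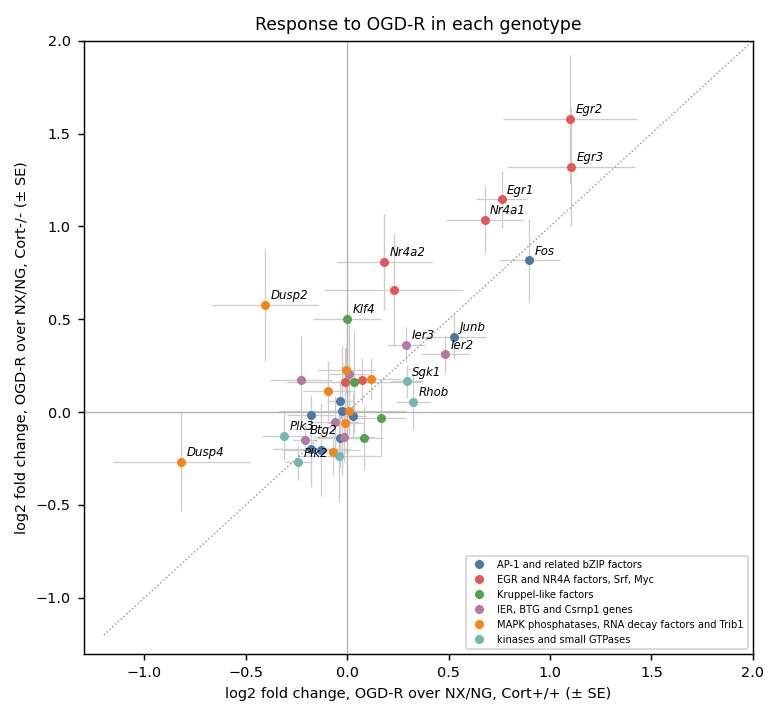
Log2 fold change of OGD-R over NX/NG in Cort+/+ (horizontal) and Cort-/- (vertical) for the 41 genes with their SE, coloured by functional group, with a dotted line of equal response. Egr1, Egr2, Egr3, Nr4a1, Fos, Junb, Ier2 and Ier3 lie in the upper right, Plk2 in the lower left, and Dusp2 above the line (0.58 in Cort-/- and -0.40 in Cort+/+).

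Whether the response itself differed between genotypes was tested with the interaction of genotype and environment, as the log2 change in Cort-/- minus that in Cort+/+. No gene of the 41 passed an FDR of 0.05, and 0% of the 27321 genes did. Dusp2 alone had an unadjusted p under 0.05 with a positive value and no gene had one with a negative value, against 2.1% and 1.82% of all genes. Dusp2, a nuclear phosphatase of ERK and p38, measured 1.71, 1.32 and 1.38 RPKM and then 1.36 and 0.855 RPKM in Cort+/+, and 0.873 and 0.849 and then 1.66 and 1.07 RPKM in Cort-/-, an interaction of 0.98 ± 0.40 (limma, unadjusted p = 0.0430, FDR = 0.997). Leaving out each library in turn gave interactions of Dusp2 from 0.68 to 1.29, and the limma p was highest, at 0.146, without Cort-/- OGD-R replicate 1, the library with 1.66 RPKM. That library also had a raised sum of epithelial markers, and the interaction was 0.69 without it and 1.05 without the other such library, replicate 2 of Cort+/+ NX/NG.

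The interaction was 0.38 for Egr1 (95% interval -0.10 to 0.87), 0.36 for Nr4a1 (-0.27 to 0.99) and -0.08 for Fos (-0.70 to 0.53). These intervals hold 0 and are wide, so that neither an equal nor a different response was shown for them. All 8 genes of the EGR, NR4A, Srf and Myc group had positive interaction values, with a median of 0.37, and none had an unadjusted p under 0.05. Over the 41 genes, 24 values were positive and 17 negative, with a median of 0.06, beside 0.003 over all genes. The 8 are measured in the same libraries, so their common sign is not 8 separate results. The 5 libraries under NX/NG enter both the interaction and the comparison of genotypes that follows.

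Other genes with the lowest p of the interaction had intervals that held 0. Csrnp1, a nuclear protein induced by AXIN1, measured 3.27, 3.34 and 2.59 and then 2.55 and 2.63 RPKM in Cort+/+, and 2.88 and 2.22 and then 2.46 and 3.33 RPKM in Cort-/- (0.40 ± 0.28). Klf4 measured 15.9, 15.3 and 11.1 and then 14.4 and 13.5 RPKM in Cort+/+, and 8.58 and 5.95 and then 7.60 and 13.6 RPKM in Cort-/- (0.50 ± 0.41). In both genes the Cort-/- groups overlapped, and Cort-/- OGD-R replicate 3, the library low in ribosomal RNA, was the higher of its pair. Negative values were found for Rhob (-0.27 ± 0.16), Klf6 (-0.22 ± 0.19), Ier2 (-0.17 ± 0.17), Zfp36l1 (-0.15 ± 0.14) and Sgk1 (-0.13 ± 0.11). Klf6 measured 63.8, 59.2 and 63.5 and then 60.6 and 71.5 RPKM in Cort+/+, and 67.6 and 68.5 and then 71.7 and 53.3 RPKM in Cort-/-, with overlap in both genotypes. Over the same comparison, 2 of 6 pericyte markers had positive interactions at an unadjusted p under 0.05. Of 6 fibroblast markers, 2 had positive interactions and 1 a negative one, beside 2.1% and 1.82% of all genes. The part of both marker lists in these values was not tested.

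The next question was how the genes differed between genotypes. Under NX/NG, Nr4a1, Klf4, Egr1, Dusp2, Nr4a2, Egr2, Trib1 and Ier5 were lower in Cort-/- than in Cort+/+ BECs at an unadjusted p under 0.05 in limma, by 1.22-fold (Ier5) to 2.04-fold (Egr2), and Atf3 was 1.25-fold higher. The 8 lower genes are 19.5% of the 41, against 4.82% of the 29965 genes tested, and the 1 higher gene is 2.44%, against 3.56%. Here too the 41 were chosen with earlier results known and had a higher median level than all genes, so the shares are not like for like. The count of lower genes was 3 without Cort-/- replicate 2, 4 without Cort+/+ replicate 1, 5 without Cort-/- replicate 1 and 2 with the replicate number as a block. None passed an FDR of 0.05 (0% of all genes), the lowest FDR of the 41 being 0.313. The median log2 difference was -0.04 over the 41 and -0.01 over all genes. By class, 4 of 8 EGR and NR4A genes with Srf and Myc, 1 of 4 Kruppel-like factors, 1 of 7 IER, BTG and Csrnp1 genes and 2 of 8 feedback genes were lower, and none of the kinases and GTPases was.

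Nr4a1 measured 3.44, 2.32 and 2.79 RPKM (as deposited) in Cort+/+ and 1.43 and 1.48 RPKM in Cort-/- under NX/NG, a log2 difference of -0.91 ± 0.19 (limma, unadjusted p = 0.00474, FDR = 0.313). The limma p was 0.0502 without replicate 1 of Cort-/- and 0.0614 with the block. Egr1 measured 6.60, 6.14 and 5.22 RPKM against 3.36 and 4.30 RPKM, a difference of -0.64 ± 0.15 (unadjusted p = 0.00885, FDR = 0.382). For both genes the Cort-/- libraries were below all Cort+/+ libraries. Fos, in contrast, measured 2.15, 2.23 and 1.73 RPKM against 1.96 and 1.37 RPKM, and its groups overlapped (-0.29 ± 0.21).

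Klf4 measured 15.6, 14.95 and 10.8 RPKM in Cort+/+ and 8.34 and 5.78 RPKM in Cort-/- (log2 difference -0.96 ± 0.23, limma, unadjusted p = 0.00816, FDR = 0.374), while its partner in flow sensing, Klf2, measured 5.61, 6.18 and 4.65 against 5.44 and 3.79 RPKM (-0.26 ± 0.20). Klf6 was 1.09-fold higher in Cort-/-, at 65.8 and 66.5 RPKM against 62.3, 57.9 and 61.9 RPKM, with an unadjusted p of 0.0685 in limma.

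Among the feedback genes, Dusp2 measured 1.67, 1.29 and 1.34 RPKM in Cort+/+ and 0.849 and 0.825 RPKM in Cort-/- (-0.70 ± 0.19), and Trib1, a scaffold that directs proteins to degradation, measured 3.47, 3.35 and 2.97 against 2.76 and 2.28 RPKM (-0.36 ± 0.13). The groups of both were apart. Zfp36 differed by -0.33 ± 0.14 and Zfp36l1, its relative, by 0.16 ± 0.07, each with an unadjusted p above 0.05 in limma, and Dusp1, Dusp4, Dusp5 and Dusp6 differed by at most 0.11 in size. Zfp36l1 measured 15.4, 17.4 and 16.8 RPKM in Cort+/+ and 18.2 and 18.8 RPKM in Cort-/-.

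Of the remaining genes, Nr4a2 measured 1.25, 0.881 and 0.940 RPKM against 0.598 and 0.543 RPKM (-0.73 ± 0.24), Egr2 differed by -1.03 ± 0.34 on few reads, and Egr3 by -0.57 ± 0.33 with an unadjusted p of 0.143 in limma. Ier5, an early gene that acts on heat shock factor, measured 18.4, 17.9 and 16.0 against 15.7 and 13.0 RPKM (-0.28 ± 0.11). Atf3, a stress-induced bZIP factor, measured 5.30, 5.23 and 6.04 RPKM in Cort+/+ and 6.80 and 7.01 RPKM in Cort-/- (0.32 ± 0.09), opposite in direction to the EGR and NR4A genes. Rhob measured 124, 118 and 133 against 144 and 139 RPKM (0.18 ± 0.07), and Sgk1 18.3, 21.03 and 20.02 against 22.2 and 20.9 RPKM (0.13 ± 0.08), with overlap in Sgk1. The fibroblast and pericyte marker sums given above were lower in the same Cort-/- NX/NG libraries and the endothelial sum was higher, and their part in the differences was not tested.

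**Figure D4:**
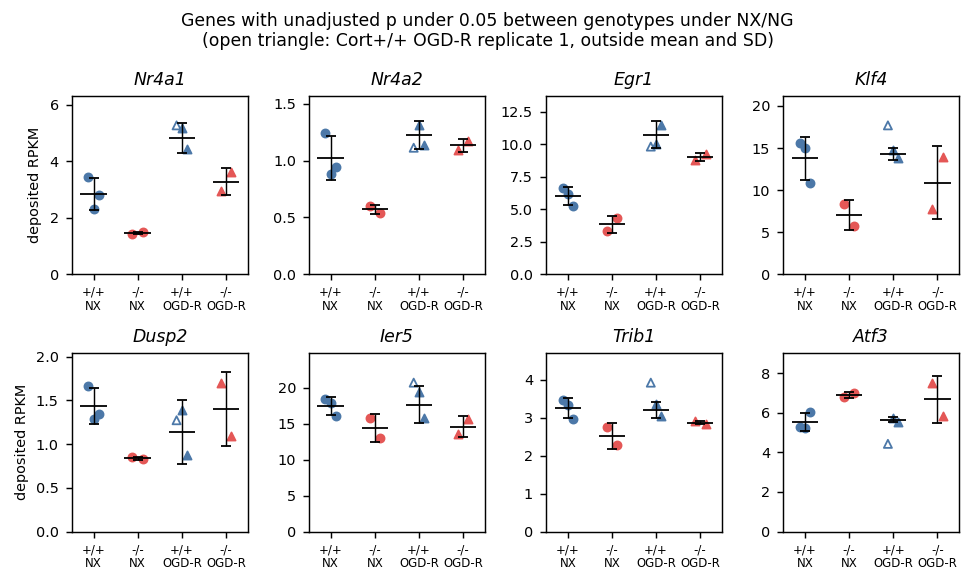
Deposited RPKM of 8 genes with an unadjusted p under 0.05 between genotypes under NX/NG, 1 point per library, with mean and SD as black bars and Cort+/+ OGD-R replicate 1 open and outside mean and SD. Under NX/NG, Nr4a1 sits at 1.43 and 1.48 RPKM in Cort-/- against 2.32 to 3.44 RPKM in Cort+/+, and Atf3 is the only gene shown that is higher in Cort-/- in that environment.

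After OGD-R, Fosl1 and Plk3 were higher in Cort-/- and Fos and Nr4a1 lower at an unadjusted p under 0.05 in limma, or 4.88% of the 41 in each direction against 2.22% and 2.17% of 28862 genes tested, and none passed an FDR of 0.05 (0% of all genes). Among the libraries of this fit, only Cort-/- replicate 3 was low in ribosomal RNA (0.0951%). The median log2 difference was -0.04 over the 41 and -0.01 over all genes. The count of 4 was 1 without Cort-/- replicate 1 or Cort+/+ replicate 3, and 2 without Cort+/+ replicate 2.

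Nr4a1 measured 5.18 and 4.43 RPKM in Cort+/+ (5.27 RPKM in replicate 1) and 2.94 and 3.61 RPKM in Cort-/- after OGD-R, a log2 difference of -0.54 ± 0.18 (limma, unadjusted p = 0.0335, FDR = 0.907). Fos measured 4.13 and 3.98 RPKM (4.46 RPKM in replicate 1) against 3.15 and 3.12 RPKM, a difference of -0.36 ± 0.13 (unadjusted p = 0.0467, FDR = 0.907). Replicate 1 stood with the other Cort+/+ libraries in both genes. Without any 1 library of the fit the limma p was above 0.05 for both, from 0.0622 to 0.183 for Nr4a1 and from 0.0561 to 0.0905 for Fos, and with all mapped libraries it was 0.00937 and 0.0152. Egr1 measured 10.001 and 11.4 RPKM (9.81 RPKM in replicate 1) against 8.78 and 9.23 RPKM, also without overlap, and its difference of -0.25 had a 95% interval of -0.56 to 0.07.

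Fosl1, a FOS-type subunit induced late through ERK, measured 6.87 and 6.63 RPKM in Cort+/+ and 8.64 and 8.94 RPKM in Cort-/- (0.38 ± 0.10), but replicate 1 of Cort+/+ measured 8.99 RPKM, above both Cort-/- libraries. Plk3 measured 11.6 and 10.2 against 13.7 and 13.8 RPKM (0.33 ± 0.11), with 12.1 RPKM in replicate 1. With replicate 1, the genotypes overlapped in Fosl1 and stayed apart in Plk3. Klf4 measured 14.8 and 13.8 RPKM against 7.80 and 13.9 RPKM, so the 2 Cort-/- libraries differed from each other more than the groups did. Dusp4 measured 6.11 and 3.60 against 5.97 and 9.33 RPKM (0.66 ± 0.35), with overlap. Ier5 measured 19.4 and 15.8 against 13.5 and 15.7 RPKM (-0.27 ± 0.15), and Ier2 measured 13.0 and 11.5 against 10.1 and 11.3 RPKM (-0.20 ± 0.12). Both were lower in each Cort-/- library than in the tested Cort+/+ libraries (Ier2 in replicate 1 was at 9.99 RPKM), without an unadjusted p under 0.05 in limma. Srf measured 16.2 and 17.0 against 18.5 and 17.9 RPKM (0.13 ± 0.09), and Myc 14.1 and 11.5 against 13.6 and 16.4 RPKM (0.23 ± 0.16).

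**Figure D5:**
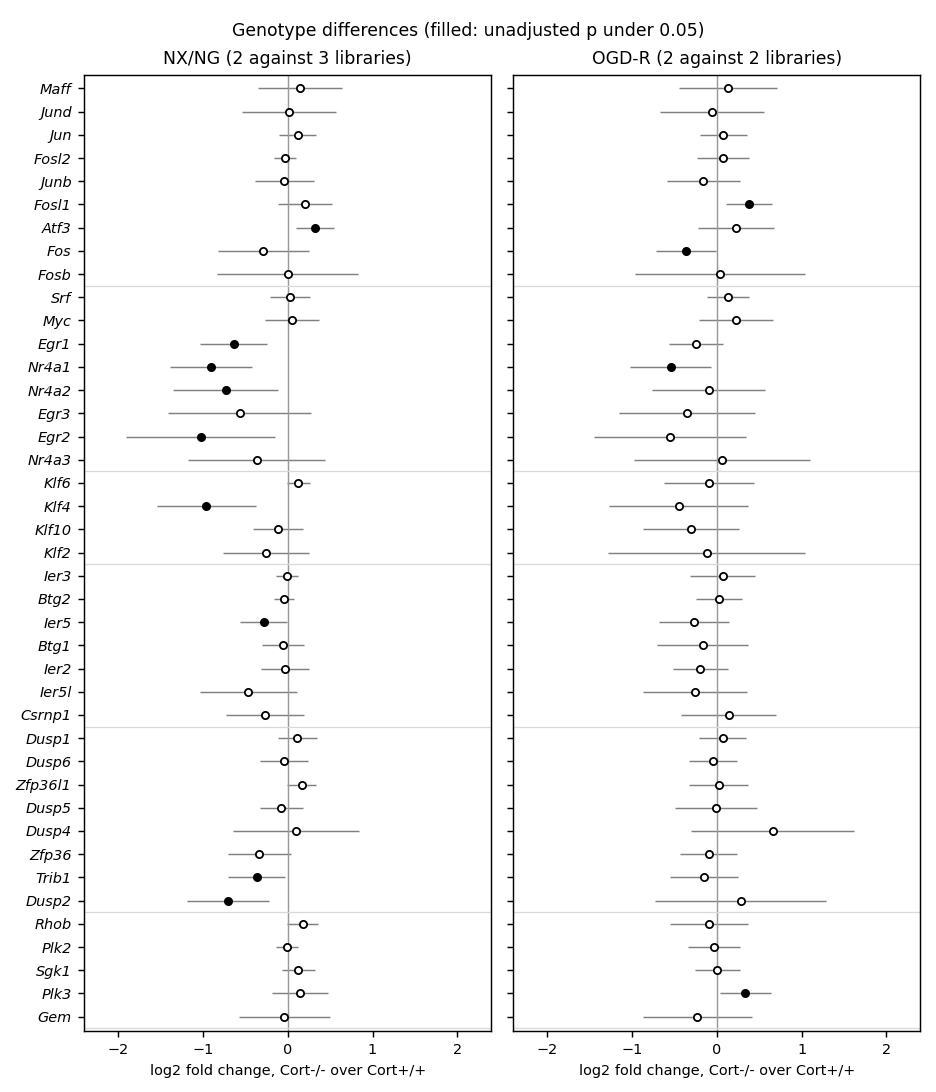
Log2 fold change of Cort-/- over Cort+/+ with its 95% interval for the 41 genes under NX/NG (left) and after OGD-R (right), filled where the unadjusted p was under 0.05 and grouped by function. Under NX/NG 9 genes are filled, 8 of them below 0, and after OGD-R 4 are.

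The genes around the 41 in the pathway were counted by list. Of 34 genes of the MAPK cascade and its upstream adaptors, 1 was higher in Cort-/- under NX/NG at an unadjusted p under 0.05 in limma (Map2k4, log2 difference 0.18 ± 0.05), where 3.56% of all genes were, and none in any other comparison, while their summed level stayed between 479 and 498 RPKM in all 10 libraries. Of 13 SRF partners and CREB or ETS factors measured, Mrtfa, a coactivator of SRF, was lower after OGD-R in Cort+/+ by -0.23 ± 0.09, beside 3.06% of all genes. Mrtfa also had an interaction of 0.29 ± 0.11, beside 2.1% of all genes with a positive one. Among 17 other inhibitors of the ERK pathway, Dusp14 was higher in Cort-/- under NX/NG (0.67 ± 0.16) and after OGD-R (0.45 ± 0.15), beside 3.56% and 2.22% of all genes. In Cort-/- under NX/NG 2 more were lower, beside 4.82% of all genes. Spred3 was lower after OGD-R in Cort+/+ (-0.25 ± 0.08), beside 3.06%.

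Of 28 other early and delayed response genes measured, 1 was higher and 5 were lower in Cort-/- under NX/NG, led by Nab2, a corepressor that EGR proteins induce (-0.55 ± 0.13), beside 3.56% and 4.82% of all genes. After OGD-R 2 were lower, led by Ereg (-0.46 ± 0.14), beside 2.17% of all genes. Between OGD-R and NX/NG, 3 were higher and 1 lower in Cort+/+, led by Gadd45a (0.59 ± 0.11), beside 3.71% and 3.06% of all genes, and 1 was higher and 1 lower in Cort-/-, led by Rcan1 (-0.31 ± 0.10), beside 2.21% and 1.87%. None of the listed genes passed an FDR of 0.05 in any comparison. Of 6 heat shock transcripts, 1 was higher and 1 lower in Cort-/- under NX/NG, beside 3.56% and 4.82% of all genes. Hsph1 was lower after OGD-R in Cort-/- (-0.34 ± 0.08), beside 1.87%. The summed level of the 6 lay between 204 and 269 RPKM.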

How the data were processed

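RNA-seq was made from pooled primary BECs of 4 groups. The deposited RPKM values (reads per kilobase of the deposited gene length, scaled to library size by the authors) came in 1 table per environment from the reanalyzerGSE pipeline, set to keep genes of low expression, and edgeR is named in the submitters' processing notes; aligner, genome build and annotation are not given in the sources used here. The deposited Length column is a value of the authors in nucleotides. RPKM times length lay within 0.05 of a whole number of reads for 100% of values above 0, so reads were recovered. Of 12 samples, 10 had columns; 10 columns of expression categories and the authors' own fold changes, p-values and FDR were not used.

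Genotypes were compared within a table on deposited RPKM. For OGD-R against NX/NG and the interaction, the recovered reads of shared genes received joint TMM factors. Log2(RPKM + 0.1) entered limma (version 3.58.1, R version 4.3.3) with a mean-dependent prior variance, over all genes above 0 in a library, with Benjamini-Hochberg adjustment and a threshold of FDR 0.05; fold changes are on this scale. Intervals are limma's 95% intervals. The fit was tested on simulated data, where false calls came mainly from genes under 1 RPKM. P-values measure the spread between pooled cultures.

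The members, their classes and the other gene and marker lists were chosen with earlier results of these data known. Values in every library are given for the members with the lowest p (up to 5 per direction and comparison, mean of at least 1 RPKM), for Egr1, Fos and Nr4a1, which the study names, and for the 3 with the highest level. Alternatives were a pseudocount of 1, a filter of 1 RPKM in 2 libraries, quantile normalization, all groups in 1 fit, limma-voom on reads, all mapped libraries, a term for libraries under 1% ribosomal RNA, scaling by totals without ribosomal RNA, the replicate number as a block, and leaving out each library. Limma-voom on all mapped libraries was added after seeing the data. Deviations from the group means of same-numbered libraries correlated at -0.39 to 0.11. With so few libraries per group, this cannot settle whether the replicate numbers pair the samples.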

Additional observations from a re-analysis of the deposited data

Results flagged for a closer look

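Dusp2 had an interaction of 0.98 on the log2 scale between genotype and environment (limma, unadjusted p = 0.0430, FDR = 0.997): it was lower after OGD-R in Cort+/+ (-0.40) and higher in Cort-/- (0.58), and neither of these differences had an unadjusted p under 0.05. It drew attention because the test of the difference between genotypes was itself under 0.05, in 1 of 41 genes tested. That share of 2.44% is close to the 2.1% of all genes with a positive interaction at this threshold (1.82% had a negative one).

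Replicate 1 of Cort+/+ OGD-R entered only the alternative fits with all mapped libraries. Of the 10 genes that were higher after OGD-R in the other Cort+/+ libraries at unadjusted p, 10 were above every Cort+/+ NX/NG library in it as well. The same count was not made over all genes, so whether it is particular to these genes is not known. This library is also low in ribosomal RNA, and the part of that in the difference between OGD-R and NX/NG was not tested. Between genotypes after OGD-R, all mapped libraries were also fitted with a term for low ribosomal RNA. The log2 differences were then -0.62 for Nr4a1, -0.42 for Fos, 0.20 for Fosl1 and 0.27 for Plk3.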

How the results depend on the processing

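No member passed an FDR of 0.05 in any of 71 limma or limma-voom fits. The number of members with an unadjusted p under 0.05 between genotypes under NX/NG was 9, and 5 to 10 when each library was left out (5 without either Cort-/- library or without Cort+/+ replicate 1). After OGD-R it was 4, but 2 by limma-voom on reads, and 1 to 3 with a library left out (1 without Cort-/- replicate 1 or Cort+/+ replicate 3, 2 without Cort+/+ replicate 2). For OGD-R against NX/NG it was 13 in Cort+/+, and 7 to 12 with a library left out (7 without OGD-R replicate 2). In Cort-/- it was 10, but 6 among genes of at least 1 RPKM in 2 libraries, and 3 to 8 with a library left out (3 without NX/NG replicate 2, 6 without NX/NG replicate 1). For the interaction it was 1, but 3 by limma-voom on all mapped libraries, chosen after seeing the data, and 0 to 4 with a library left out (4 without Cort-/- OGD-R replicate 1; 0 without Cort-/- NX/NG replicate 1, Cort+/+ NX/NG replicates 1 or 2, or Cort+/+ OGD-R replicate 3). The cause was not tested. The median over the members moved by less than the spread between replicates in all 39 alternatives and 27 fits without a library.

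With the replicate number as a block, the count was 4 under NX/NG, 0 after OGD-R with all mapped libraries, 12 for Cort+/+ and 1 for the interaction. Whether the numbers pair the samples could not be settled. Cort-/- shared 1 number between environments, so no block was possible there. Members under 1 RPKM rested on few reads, as few as 4 for Egr2.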
